A study of Homo sapiens with 6 samples.

Results

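Chemokine genes were followed in the human cell line MDA-MB-231, derived from a triple-negative breast cancer, after the cells had been sorted by how slowly they divide. The family comprised 9 genes, picked by name from the 58735 genes of the deposited tables: CXCL1, CXCL2, CXCL3, CXCL5, CXCL8 and CXCL16 of the CXC class, and CCL2, CCL5 and CCL20 of the CC class. All cells were wild type and had been stained with PKH26, a membrane dye that is thinned out at every division, then grown for 12 days in DMEM with serum; the labels name no drug and no genetic change. The brightest 1% were sorted as slow-cycling cells (SCC). The comparison group, rapid-cycling cells (RCC), was of moderate dye brightness by the protocol and low in dye by the sample characteristics. RNA-seq was done on 3 replicates per group, 6 libraries in all, from 1 cell line. The labels do not say that replicates came from separate cultures, so p-values measure only the spread between these libraries, which may be technical.

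Chemokines are small secreted proteins that guide migrating cells through G protein-coupled receptors. CXCL1, CXCL2, CXCL3, CXCL5 and CXCL8 carry a Glu-Leu-Arg motif before their CXC cysteines and draw neutrophils through CXCR2, with CXCL8 also acting on CXCR1. Their genes are classic NF-kB targets in epithelial and tumour cells, and their mRNAs are short-lived because AU-rich elements in the 3′ untranslated region (UTR) recruit decay factors. CCL2 draws monocytes through CCR2, CCL5 draws T cells and monocytes, and CCL20 acts through CCR6. CXCL16 is made as a membrane protein that is shed by ADAM10 and ADAM17, and its receptor is CXCR6.

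Of the 9 genes, 6 had enough counts to be tested, and 4 of these rose in SCC: CXCL2, CXCL8, CXCL3 and CXCL16. CXCL2 was 10.4-fold and CXCL8 4.38-fold higher. CCL2, the family's most abundant mRNA, was at a similar level in SCC and RCC, with an interval of 0.912 to 1.24 for its fold change. CXCL1 was 2.25-fold higher without passing the threshold, and CXCL5, CCL5 and CCL20 had at most 12 counts over all libraries. A rise means an adjusted p under 0.05 (edgeR's quasi-likelihood test, two-sided, Benjamini-Hochberg over all 15881 tested genes). By that rule 1.69% of all tested genes were called higher and 0.378% lower in SCC. No family member was lower: 0 by edgeR, 0 at an unadjusted p under 0.05, and 0 by DESeq2, which called 0.766% of genes lower. DESeq2 called 3 members higher, CXCL2, CXCL8 and CXCL3, beside 2.51% of genes. CXCL3 and CXCL16 met the filter on low counts only through their SCC libraries, so they could enter the test only by being high there, and the count of 4 is a description of the genes that passed.

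Upstream sequences were available for 6 of the genes, and the 5 CXC genes among them shared a 9-base NF-kB-type sequence. Of these 5, CXCL2, CXCL3 and CXCL8 were called higher in SCC, CXCL1 was not called, and CXCL5 had 2 counts. No upstream sequence was available for CXCL16, CCL2 and CCL5, so CCL2, at a similar level in both groups, was not searched. A link between the sequence and the levels was not tested. The 5 CXC sequences are shown. Each line gives the 140 bases before the RefSeq transcription start, 5′ to 3′ on the gene's strand (RefSeq, GRCh38.p14). Capitals mark GGAATTTCC in all of them and, in CXCL8 only, the AP-1-type sequence TGANTCA.
CXCL1, chr4:73869253-73869392, plus strand: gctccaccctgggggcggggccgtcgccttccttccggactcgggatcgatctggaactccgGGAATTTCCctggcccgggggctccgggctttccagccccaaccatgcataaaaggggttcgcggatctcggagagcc
CXCL2, chr4:74099196-74099335, minus strand: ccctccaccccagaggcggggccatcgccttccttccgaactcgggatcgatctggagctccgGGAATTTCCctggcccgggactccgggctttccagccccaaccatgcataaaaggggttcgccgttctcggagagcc
CXCL3, chr4:74038690-74038829, minus strand: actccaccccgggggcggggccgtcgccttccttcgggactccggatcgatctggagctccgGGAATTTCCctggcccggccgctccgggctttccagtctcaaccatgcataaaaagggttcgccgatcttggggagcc
CXCL5, chr4:73998678-73998817, minus strand: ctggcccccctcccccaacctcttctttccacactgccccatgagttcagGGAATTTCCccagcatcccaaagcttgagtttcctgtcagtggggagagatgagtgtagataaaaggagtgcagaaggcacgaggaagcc
CXCL8, chr4:73740429-73740568, plus strand: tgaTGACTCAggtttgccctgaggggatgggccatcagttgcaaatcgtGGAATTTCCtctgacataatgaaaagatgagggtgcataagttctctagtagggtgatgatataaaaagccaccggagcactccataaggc

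The shared sequence lay 69 to 91 bases before the start: it began 78 bases upstream in CXCL1 and CXCL3, 77 in CXCL2, 90 in CXCL5 and 91 in CXCL8. Searched on both strands, GGAATTTCC was found in the 250 bases upstream of 145 of 35116 RefSeq promoters, or 0.413%. The longer NF-kB consensus was present in 5.21% of promoters, among them CXCL1, CXCL2, CXCL3 and CXCL5, where its match overlaps that sequence, and CCL20, which lacks GGAATTTCC. TGANTCA occurred in 6.57% of promoters and, of the 6 members searched, only in CXCL8, from 137 to 131 bases upstream. TATAAA, found in 10.7% of promoters, was present in CXCL8 and CCL20. CXCL1, CXCL2 and CXCL3 were alike well beyond this site: over the 140 bases, CXCL1 and CXCL2 were 92.1% identical, CXCL1 and CXCL3 90.7%, and CXCL1 and CXCL8 54.3%. These letters do not by themselves mark a site in use, and CXCL5, which has the sequence, had almost no counts.

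CXCL2 (ENSG00000081041; GRCh38 chromosome 4, 74097035 to 74099293, minus strand), a neutrophil attractant, differed most. Its level was 16.8, 16.8 and 15.8 CPM in SCC replicates 1 to 3 and 1.91, 1.58 and 1.17 CPM in RCC replicates 1 to 3. CPM is the count divided by the library's total, scaled by TMM and set to a common total. The 3 SCC libraries lay close together and far above every RCC library. The means were 16.5 ± 0.571 and 1.55 ± 0.370 CPM (SD, n = 3), which gave a log2 fold change of 3.38 (standard error 0.17, adjusted p 1.46e-06, edgeR). That was the fifth highest of all 15881 fold changes, and it stayed between 3.22 and 3.56 when each library was left out in turn. Those fits called fewer or more genes overall: 3.93%, 3.57% and 1.09% of genes were higher without SCC replicate 1, 2 and 3, and 0.608%, 0.602% and 0.63% without RCC replicate 1, 2 and 3.

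CXCL8 (ENSG00000169429; chromosome 4, 73740506 to 73743716, plus strand), which encodes interleukin-8, had the highest CPM of the CXC genes. It was at 39.0, 64.2 and 59.3 CPM in SCC replicates 1 to 3 and at 10.7, 15.5 and 10.8 CPM in RCC replicates 1 to 3. SCC replicate 1 was the lowest of its group, yet more than 2-fold above the highest RCC library. On the log2 scale the difference was 2.13 (standard error 0.20, adjusted p 1.99e-04, edgeR), and 2.32 without SCC replicate 1. CXCL2 and CXCL8 were called in every fit that left out 1 library.

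CXCL3 (ENSG00000163734; chromosome 4, 74036589 to 74038807, minus strand), the closest relative of CXCL2 in coding sequence, was measured with far fewer reads. There were 98, 55 and 60 counts in SCC replicates 1 to 3 and 22, 5 and 23 in RCC replicates 1 to 3, which correspond to 3.64, 2.81 and 2.85 CPM against 0.956, 0.239 and 1.29 CPM. The groups did not overlap, and RCC replicate 2 stood low. Its 5 counts have an exact 95% Poisson interval of 1.62 to 11.7, which covers counting error only and ends below the 22 and 23 counts of the other two. CXCL3 differed by 1.93 on the log2 scale (standard error 0.40, adjusted p 0.0363, edgeR). The call was lost without SCC replicate 3 (adjusted p 0.0758) and without RCC replicate 1 (0.143), 2 (0.064) or 3 (0.0578), and the log2 fold change without RCC replicate 2 was 1.48.

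CXCL1 (ENSG00000163739; chromosome 4, 73869393 to 73871242, plus strand) is the third of the closely related neutrophil attractants. It was at 1.97, 1.33 and 1.85 CPM in SCC replicates 1 to 3 and at 0.522, 1.05 and 0.727 CPM in RCC replicates 1 to 3, from 53, 26, 39, 12, 22 and 13 counts. All SCC libraries were above all RCC libraries, as in 14.4% of tested genes, but the gap between the nearest libraries was small. Its log2 fold change of 1.17 had a standard error of 0.34 and a 95% interval of 0.42 to 1.92, and it was not past the threshold (unadjusted p 0.00554, adjusted p 0.107, edgeR). In a fit to all 37596 genes with a count in any library, which called 2.65% of them higher, CXCL1 was called at a similar fold (log2 1.18, adjusted p 0.0358, edgeR).

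CXCL1 and CXCL3 differed in how RCC replicate 2 stood in its group. That library had the most CXCL1 counts (22) and the fewest CXCL3 counts (5), and the sum of the 2 genes was 34, 27 and 36 counts in RCC replicates 1 to 3 against 151, 81 and 99 in SCC replicates 1 to 3. Coding sequences were 93.5% identical between CXCL1 and CXCL2, 91.6% between CXCL1 and CXCL3 and 94.4% between CXCL2 and CXCL3. Of all stretches of 50 bases in the CXCL2 transcript, 5.1% were also in CXCL1 and 4.6% in CXCL3, and of stretches of 100 bases 0.0% were in either (GENCODE 29 transcripts with the longest coding sequence). Short reads from these stretches cannot be assigned to 1 gene, and how the authors' counting treated them is not given in the sources used here.

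CXCL5 (ENSG00000163735; chromosome 4, 73995642 to 73998779, minus strand) belongs to the same receptor group but had 2 counts in SCC replicate 3 and 0 in the other 5 libraries. A count of 0 allows up to 3 counts, or 0.111 to 0.168 CPM depending on the library, so CXCL5 was not detectable at this depth in those libraries. No fold is given for it.

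CXCL16 (ENSG00000161921; chromosome 17, 4733526 to 4739922, minus strand), the membrane-bound chemokine, was low but separated the groups. It was at 1.74, 1.53 and 1.33 CPM in SCC replicates 1 to 3 and at 0.696, 0.382 and 0.447 CPM in RCC replicates 1 to 3. Every SCC library was above every RCC library, on 28 to 47 against 8 to 16 counts. CXCL16 differed by 1.57 on the log2 scale (standard error 0.34, adjusted p 0.0447, edgeR), close to the threshold, and DESeq2 did not call it. It lost the call in 5 of the 6 fits without 1 library: without SCC replicate 1 (adjusted p 0.056) or 3 (0.0959) and without RCC replicate 1 (0.106), 2 (0.191) or 3 (0.174). CXCL16 shares its last 85 bases with MED11 on the opposite strand. Because the use of strand in counting was not stated, reads there cannot be told apart. MED11 itself averaged 9.37 ± 1.02 CPM over the SCC and 10.1 ± 0.491 CPM over the RCC libraries (SD, n = 3), a log2 fold change of -0.11 (adjusted p 0.629, edgeR).

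CCL2 (ENSG00000108691; chromosome 17, 34255218 to 34257203, plus strand), the monocyte attractant, was abundant in every library. It was at 85.6, 110.1 and 107.8 CPM in SCC replicates 1 to 3 and at 88.7, 103.2 and 93.0 CPM in RCC replicates 1 to 3. The groups overlapped, with SCC replicate 1 the lowest of all 6 libraries. CCL2 differed by 0.09 on the log2 scale, standard error 0.10, and had a 95% interval of -0.13 to 0.31 (adjusted p 0.636, edgeR). Without SCC replicate 1 it was 0.20 and past the threshold (adjusted p 0.042).

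The remaining CC genes were at the limit of detection. CCL5 (ENSG00000271503; chromosome 17, 35871491 to 35880793, minus strand) had 11, 0 and 1 counts in SCC replicates 1 to 3 and 0 in each RCC library. Nearly all of its counts came from SCC replicate 1. Against 3 counts over the RCC group its pooled SCC level was 3.66 times as high. That ratio takes the SCC counts as exact, so it is not a lower bound. With the 1 count left when SCC replicate 1 is set aside, no fold can be given. CCL20 (ENSG00000115009, chromosome 2, 227805739 to 227817564, plus strand) had 1, 5 and 2 counts in SCC and 0 in each RCC library. By the same ratio its pooled level was 2.44 times as high, again not a lower bound. Of the 8 CCL20 counts 5 came from SCC replicate 2, and with the 3 left when it is set aside no such ratio is given. In the fit to all genes with a count, neither was called (adjusted p 0.187 for CCL5 and 0.342 for CCL20, edgeR).

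**Figure D1:**
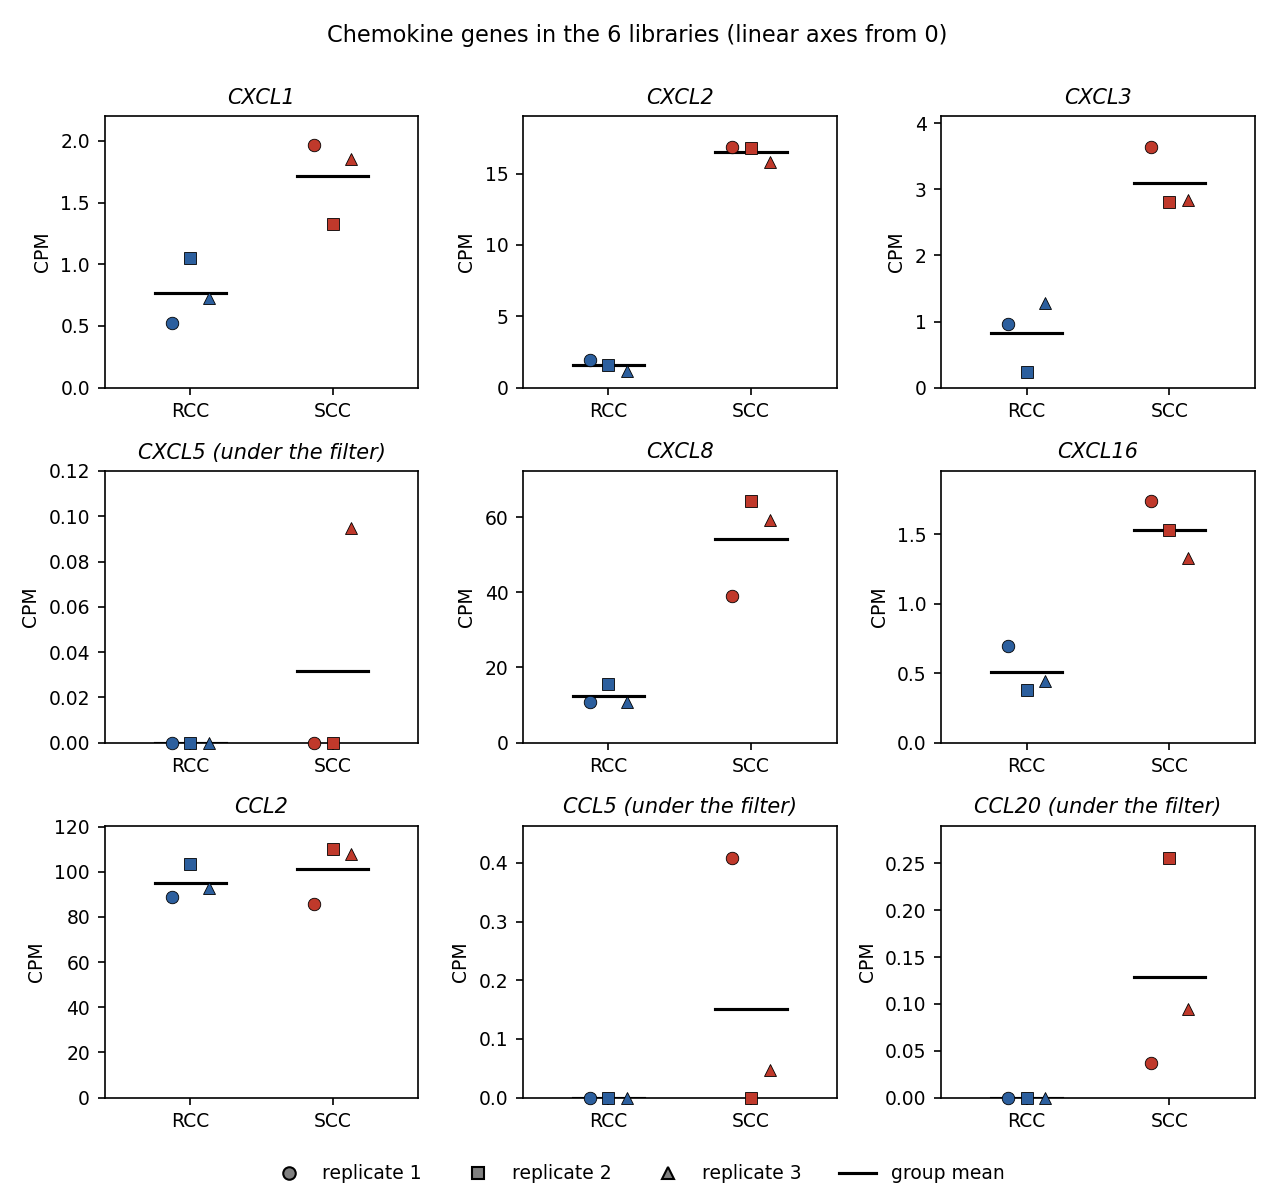
Level of each of the 9 chemokine genes in CPM (linear axes from 0, a different scale in each panel) in the RCC (blue) and SCC (red) libraries, with the replicate number as the symbol and the group mean as a bar. The SCC points of CXCL2 lie at 15.8 to 16.8 CPM against 1.17 to 1.91 in RCC, the CCL2 points overlap, and CCL5 rests on SCC replicate 1.

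SCC replicate 1 also stood apart in markers of white blood cells, which a cell line should lack. The summed level of 15 leukocyte markers was 7.05 CPM in SCC replicate 1 and 1.82 to 3.23 CPM in the other 5 libraries. That gives a range of 2.25 to 7.05 CPM for SCC and 1.82 to 2.39 CPM for RCC. S100A8, S100A9 and LYZ, typical of neutrophils and monocytes, had 43 counts together in SCC replicate 1, 1 in RCC replicate 2 and 0 in the other 4. The pan-leukocyte gene PTPRC had 53 counts there against 3 to 15 elsewhere, and the chemokine receptor CXCR4 54 against 0 or 1. In SCC replicate 1, 14 of the 15 markers had a count. In each of the other libraries 6 to 9 markers had a count, and CD3E, MS4A1, S100A8, S100A9 and MPO were at 0 in all 5. Of the family, CCL5 followed this library, and CXCL1, CXCL3 and CXCL16 were highest in it, whereas CXCL8 and CCL2 were the lowest of their group there. The part of such RNA in the levels was not tested. With SCC replicate 1 set aside, log2 fold changes came to 3.37 for CXCL2, 2.32 for CXCL8, 1.79 for CXCL3, 1.47 for CXCL16 and 1.06 for CXCL1, and the first 3 were called, as was CCL2.

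Some of 16 listed markers of breast cancer lines are given here. Of the 13 tested, edgeR called 1 higher in SCC, beside 1.69% of all tested genes. DESeq2 called FN1, KRT8 and S100A4 higher, beside 2.51% of genes. VIM, EGFR and CD44, high in mesenchymal-type breast cancer lines, had means of 785, 772 and 353 CPM over all libraries. The levels of the listed epithelial and luminal markers KRT8, KRT18, EPCAM, CDH1, GATA3 and FOXA1 are not given here. No cell type is therefore read from these values. All 16 markers summed to 4147 to 4190 CPM in the SCC and 3811 to 3927 CPM in the RCC libraries. The hormone receptor genes ESR1 and PGR were at 0.405 and 0.0217 CPM. ERBB2 was at 80.4 CPM, and fibroblast and endothelial markers summed to 22.6 to 32.5 CPM. Summed counts ranged from 17655855 to 27831824 per library. In bulk libraries a change in the number of cells that make an mRNA and a change in its amount per cell cannot be told apart.

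Compared per deposited gene length, the order of the genes changed between the groups only below CXCL2. For CCL2 (1986 bases) and CXCL3 (2219 bases) that length equals the whole span of the gene. The CCL2 transcript has 297 coding bases and a 3′ UTR of 376 bases. For CXCL2 (1500 bases), CXCL8 (2274 bases), CXCL1 (1296 bases) and CXCL16 (2794 bases) the deposited length is shorter than the span of the gene. The values are thus not on the same footing between genes, and the order depends on the lengths used. FPKM is the authors' unit of counts per kilobase of deposited length, scaled to the library. In FPKM, SCC had CCL2 at 50.6 ± 7.06, CXCL8 at 23.7 ± 5.97, CXCL2 at 10.9 ± 0.337, CXCL3 at 1.38 ± 0.198, CXCL1 at 1.31 ± 0.255 and CXCL16 at 0.545 ± 0.0703 (SD, n = 3). CXCL3 and CXCL1 overlapped, and the other neighbours in this order did not. RCC had CCL2 at 47.7 ± 4.06, CXCL8 at 5.41 ± 1.24, CXCL2 at 1.03 ± 0.243, CXCL1 at 0.591 ± 0.210, CXCL3 at 0.371 ± 0.240 and CXCL16 at 0.181 ± 0.0579 FPKM. There CXCL2 and CXCL1 overlapped, as did CXCL1 and CXCL3, and CXCL3 and CXCL16.

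CCL2 was a smaller share of the family's summed FPKM in SCC than in RCC, and CXCL8 and CXCL2 were larger ones. CCL2 took 86.3% ± 0.957 (SD, n = 3) of the summed FPKM of the 9 genes in RCC and 57.1% ± 0.481 in SCC. CXCL8 held 9.71% ± 1.28 in RCC and 26.4% ± 3.27 in SCC, and CXCL2 1.88% ± 0.521 and 12.5% ± 2.04. Relative to CCL2, the 6 CXC genes summed to 14.6% to 17.2% in the RCC libraries and to 73.5% to 76.3% in the SCC libraries. SCC replicate 1 differed from its group in the balance of the main CXC genes: CXCL2 was at 65.5% of CXCL8 there and at 39.7% and 40.5% in SCC replicates 2 and 3, against 15.4% to 27.1% in RCC. The size of these shares depends on the deposited gene lengths. They describe the libraries and were not tested.

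**Figure D2:**
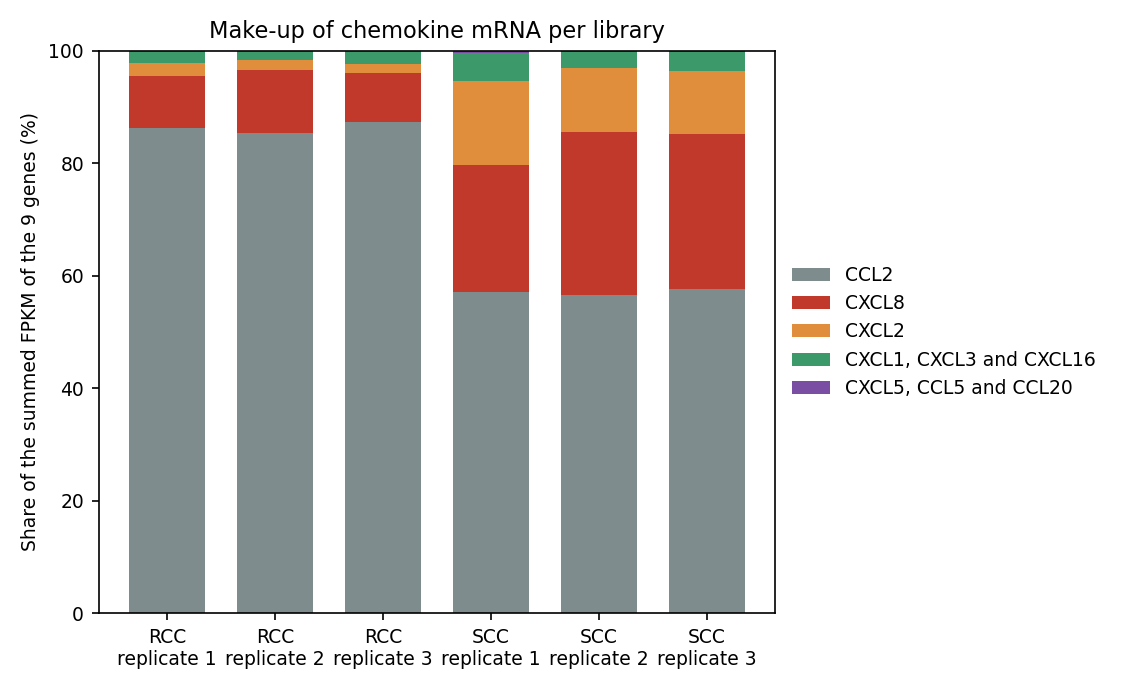
Share of each gene or group of genes in the summed FPKM of the 9 chemokine genes (stacked bars, percent) in the 3 RCC and 3 SCC libraries. CCL2 makes up 85.4% to 87.3% of each RCC bar and 56.6% to 57.6% of each SCC bar, and the CXCL8 and CXCL2 segments are wider in SCC.

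Within 1 Mb of the CXC cluster on chromosome 4, the called genes were chemokine genes. CXCL8, CXCL1, CXCL5, CXCL3 and CXCL2 lie within 358.8 kb. Within 1 Mb on either side 11 genes were tested, 4 of the family and 7 others. None of the 7 others was called by edgeR or DESeq2, none had an unadjusted p under 0.05, and their log2 fold changes ran from -0.16 to 0.47. Over all tested genes edgeR called 1.69% higher and 0.378% lower, so 0 calls among 7 genes says little. At an unadjusted p under 0.05 the shares were 11.4% and 8.27%. MTHFD2L, a mitochondrial folate enzyme gene that starts 14.9 kb beyond CXCL2, was at -0.16 (adjusted p 0.533, edgeR). The EGF receptor ligand genes EREG and AREG, further along, were at 0.09 and 0.13. ANKRD17, the neighbour with the highest level, averaged 159 ± 6.77 CPM over SCC and 169.5 ± 6.20 CPM over RCC (SD, n = 3). The other chemokine genes between CXCL8 and CXCL2 were close to silent, with 2 counts over all libraries for CXCL6 and PF4V1 each, 1 for PPBP and 20 for PF4.

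**Figure D3:**
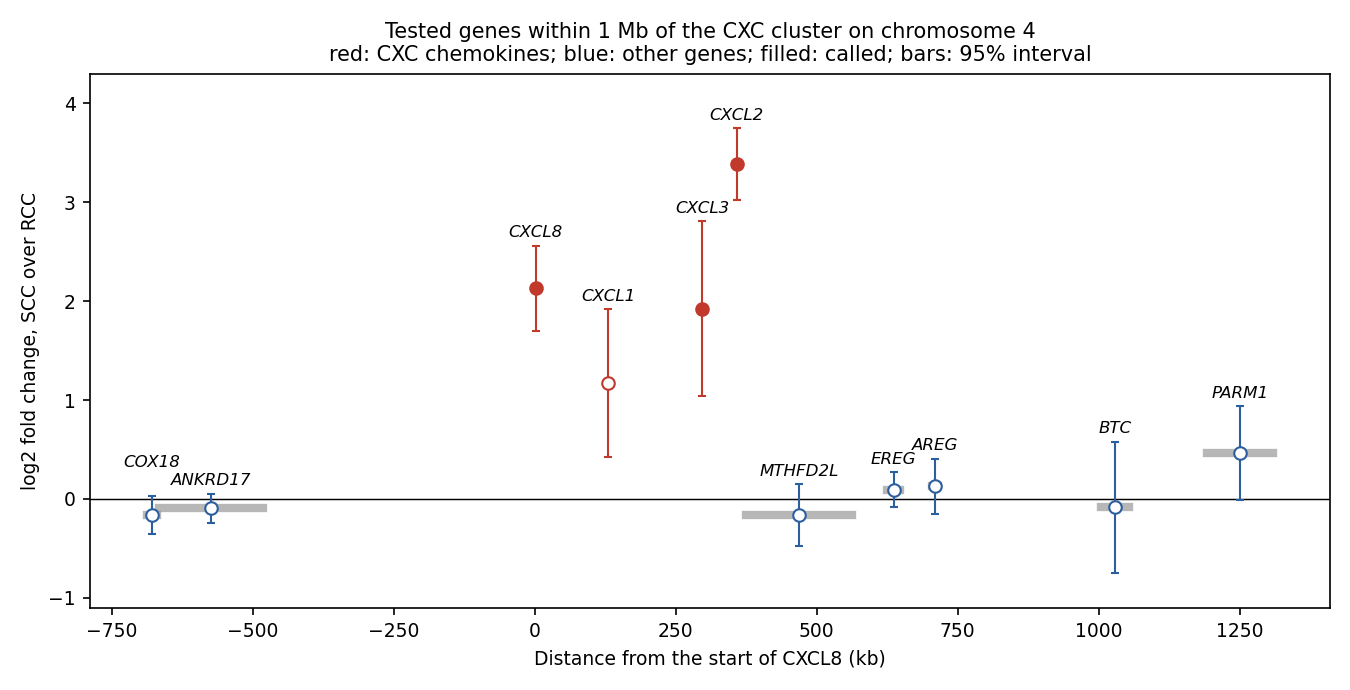
Log2 fold change of SCC over RCC (points, with 95% intervals as bars) for the 11 tested genes within 1 Mb of the CXC cluster, against distance from the start of CXCL8 in kb; grey bars show the extent of each gene, red marks CXC chemokines, blue other genes, and filled points were called. CXCL8, CXCL3 and CXCL2 are filled at 2.13, 1.93 and 3.38, and the 7 neighbours lie between -0.16 and 0.47.

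Few of the other chemokine and receptor genes could be tested, and none of those was called. Among so few genes 0 calls says little, as 1.69% of all tested genes were called higher and 0.378% lower (edgeR). Of 36 other chemokine genes in the tables, 13 had no count in any library and 3 were tested, CCL24, CCL26 and CCL28. None of the 3 was called by edgeR or DESeq2 or had an unadjusted p under 0.05, and their median log2 fold change was 0.16, against 0.00 over all tested genes. CCL28, an epithelial chemokine and the highest of them, had means of 2.24 ± 0.741 CPM for SCC and 1.97 ± 0.621 CPM for RCC (SD, n = 3). Among 23 receptor genes 5 were tested and none called by edgeR or DESeq2, at a median of 0.20, and again none had an unadjusted p under 0.05. CCRL2, an atypical receptor that does not signal through G proteins, was the highest, with 5.79 ± 0.0956 CPM in SCC against 5.06 ± 0.613 CPM in RCC.

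Of the receptors for the chemokines that rose, CXCR1 and CXCR2 were near or below detection and CXCR6 had low counts in every library. CXCR1 had 2 counts in SCC and 0 in RCC, and CXCR2 had 0 and 3. CXCR6, the receptor of CXCL16, averaged 0.683 ± 0.124 CPM over the SCC and 0.708 ± 0.0991 CPM over the RCC libraries (SD, n = 3; adjusted p 0.957, edgeR). The CXCR6 gene overlaps FYCO1 on the opposite strand. With the use of strand not stated, its counts may include FYCO1 reads and do not by themselves show CXCR6 mRNA. CCR2, the receptor of CCL2, had 4 counts over all libraries, and CCR6, the receptor of CCL20, had 0. ACKR3, an atypical receptor, had 2. Of 12 genes that shed or trim chemokines, 9 were tested and 1 rose, beside 1.69% of all tested genes (edgeR). The 1 was MMP14, a membrane-anchored metalloproteinase, at 234 ± 25.2 against 180.2 ± 3.14 CPM (log2 fold change 0.38, adjusted p 0.042, edgeR). MMP14 lost the call without SCC replicate 3 (0.111) and without RCC replicate 1, 2 or 3 (0.203, 0.178 and 0.166). It was not called by limma in any of 3 settings (0.114, 0.117 and 0.303), and its log2 fold change was 0.22 with the GC offset. ADAM10, which sheds CXCL16, was at 229 ± 10.3 against 249 ± 3.80 CPM (log2 fold change -0.12, adjusted p 0.307), and at 0.00 with an offset for GC content.

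Among 26 cytokine and receptor genes that can induce chemokines, 19 were tested, and 1 rose, beside 1.69% of all tested genes (edgeR). Their median log2 fold change was 0.14. IL6, an NF-kB-driven inflammatory cytokine, averaged 2.91 ± 0.317 CPM over SCC and 0.926 ± 0.264 CPM over RCC (SD, n = 3; log2 fold change 1.66, adjusted p 0.0102, edgeR). IL6 lost the call when RCC replicate 1 (0.0918) or 2 (0.0682) was left out and by limma on log2(FPKM + 0.1) (0.0723) or on log2(FPKM + 1) without a filter (0.171), and it overlaps STEAP1B on the opposite strand. CSF1, a macrophage growth factor gene, had the highest CPM of the uncalled genes, at 266 ± 49.2 against 194 ± 6.04 (adjusted p 0.0649). It was called by DESeq2 and, by edgeR, without SCC replicate 1 (log2 fold change 0.29, adjusted p 2.14e-04) and without SCC replicate 2 (0.54 and 0.0104), with the replicate number as a block (0.44 and 0.0184), with the GC offset (0.28 and 0.00467) or both (0.28 and 9.74e-04), and in the fit to all genes with a count (0.46 and 2.43e-06).

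Of 33 genes of NF-kB signalling, all were tested, and the median log2 fold change was 0.18. Of the 33, 4 rose and 0 fell, beside 1.69% and 0.378% of all tested genes (edgeR). At an unadjusted p under 0.05, 14 were higher and 1 lower, where 11.4% of all tested genes were higher and 8.27% lower. DESeq2 called 5 higher and 0 lower, beside 2.51% and 0.766% of genes. Those that rose included feedback inhibitors: TNFAIP3, the ubiquitin-editing enzyme A20, averaged 30.2 ± 2.93 CPM over SCC and 6.01 ± 0.457 CPM over RCC (log2 fold change 2.33, adjusted p 1.62e-06), and NFKBIA, which encodes the inhibitor IkB-alpha, at 140.5 ± 8.24 and 50.9 ± 0.997 CPM (1.47). NFKBIZ, a nuclear cofactor of NF-kB, was at 54.8 ± 1.27 and 20.3 ± 0.909 CPM (log2 fold change 1.43, adjusted p 2.97e-06). The subunit gene RELB was at 12.7 ± 2.89 and 6.93 ± 0.258 CPM (0.88, adjusted p 0.0201, edgeR). RELB lost the call without RCC replicate 1, 2 or 3 (0.113, 0.0851 and 0.113) and by limma in 3 settings (0.0799, 0.0723 and 0.272), and the GC offset brought its log2 fold change to 0.59. IRAK1, a kinase below the interleukin-1 receptor, had the highest CPM of the uncalled genes, at 361 ± 70.0 against 327 ± 11.1, and its log2 fold change of 0.14 became -0.09 with the GC offset and -0.03 without SCC replicate 1. The genes of this list overlap with known NF-kB targets, and the list was chosen with earlier results of these libraries known.

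AU-rich pentamers were frequent in the 3′ UTRs of the neutrophil-attracting chemokines and of CCL20. ATTTA occurred 10 times in CXCL2, 13.9 per kb, a density reached by 0.456% of 17311 genes with a 3′ UTR of at least 100 bases, whose median was 1.55 per kb. It occurred 9 times in CXCL8 (7.19 per kb, reached by 3.73% of genes), 7 times in CXCL3 (10.4 per kb, 1.07%) and 5 times in CXCL1 (7.08 per kb, 3.89%). CXCL16 and CCL2 had 1 each (1.02 and 2.66 per kb) and CCL5 0. CCL20 and CXCL5, both near the limit of detection, were also dense, with 3 in CCL20 (6.65 per kb, reached by 4.77% of genes) and 11 in CXCL5 (5.51 per kb, 8.15%). The densest stretch of 30 bases held 5 ATTTA in CXCL2, 4 in CXCL8 and 1 in CCL2. In CXCL16 and CXCL3, both called higher in SCC, it held 1 and 2, so it does not separate the called genes from CCL2. A link to the levels was not tested. The stretch is printed for 3 of the genes with ATTTA in capitals (GENCODE 29 transcripts, sense strand, as DNA letters).
CXCL2 3′ UTR: aagtcttctATTTATTTATTTATTTATTTA
CXCL8 3′ UTR: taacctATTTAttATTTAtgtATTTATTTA
CCL2 3′ UTR: tatgccttaagtaatgttaattcttATTTA

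Factors that bind or cut such mRNAs were tested as a list of 12, at a median log2 fold change of 0.045. Of the 12, 2 rose and 0 fell, beside 1.69% and 0.378% of all tested genes (edgeR). At an unadjusted p under 0.05, 3 were higher and 1 lower, a share to be read against the 11.4% and 8.27% of all tested genes. DESeq2 called 2 higher and 1 lower, TIA1, beside 2.51% and 0.766% of genes. ZC3H12A, which encodes the endonuclease regnase-1, averaged 19.9 ± 1.76 CPM over SCC and 7.84 ± 1.40 CPM over RCC (log2 fold change 1.35, adjusted p 3.96e-04, edgeR). ZFP36, which encodes tristetraprolin, was at 21.1 ± 4.37 and 8.55 ± 0.282 CPM (1.31, adjusted p 7.47e-04). KHSRP, another decay factor, had the highest CPM of the list, at 665 ± 99.9 against 578 ± 13.7, and was not called (adjusted p 0.260).

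**Figure D4:**
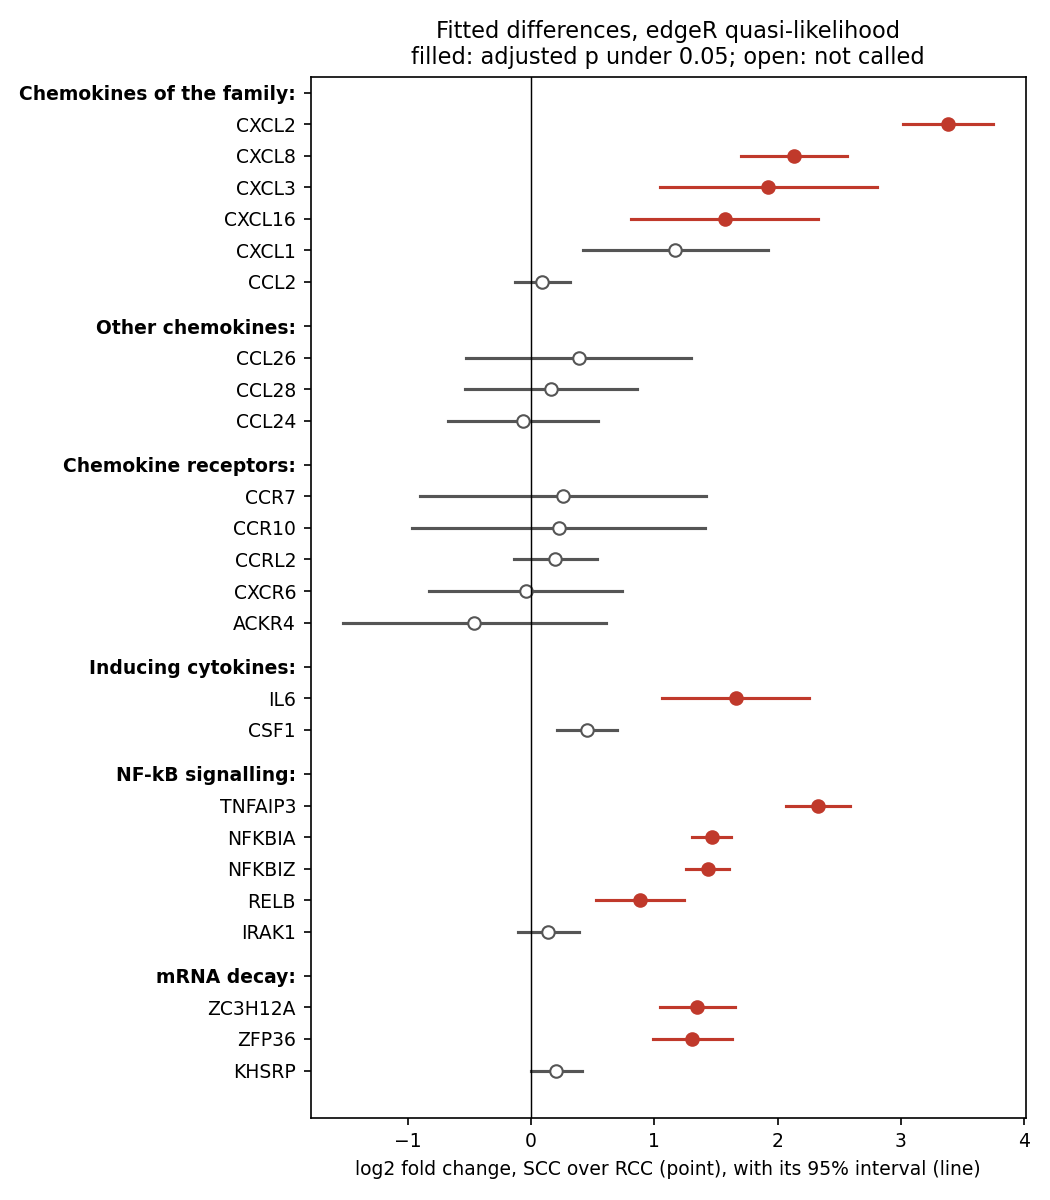
Fitted log2 fold change of SCC over RCC (points) with its unadjusted 95% interval (lines) for the 6 tested chemokines, all tested genes of the other chemokine and receptor lists, and the named genes of the cytokine, NF-kB and mRNA decay lists; filled points had an adjusted p under 0.05 by edgeR. CXCL2 lies furthest right at 3.38, TNFAIP3 is at 2.33, and none of the other chemokines or receptors is filled.

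The genes whose pattern over the 6 libraries was most like that of the 6 tested chemokines were NFKBIZ, CYP1B1, CDH11, TNFAIP3 and FOSB. The measure was Pearson's r with the mean of the chemokines' centred log2 CPM, over 10910 genes with a mean of at least 5 CPM, and it ran from 0.9970 to 0.9996. With 2 groups of 3 libraries it mainly reflects an even difference between the groups, and it takes no account of size: CDH11, a cadherin gene, averaged 116 ± 0.0962 CPM over SCC and 91.6 ± 1.59 CPM over RCC (SD, n = 3). CYP1B1, a xenobiotic-metabolising enzyme gene, was at 20.6 ± 0.691 and 4.45 ± 0.313 CPM, and FOSB, an AP-1 subunit gene, at 110.0 ± 21.7 and 3.55 ± 0.265. CYP1B1, TNFAIP3 and FOSB overlap genes on the opposite strand.

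**Figure D5:**
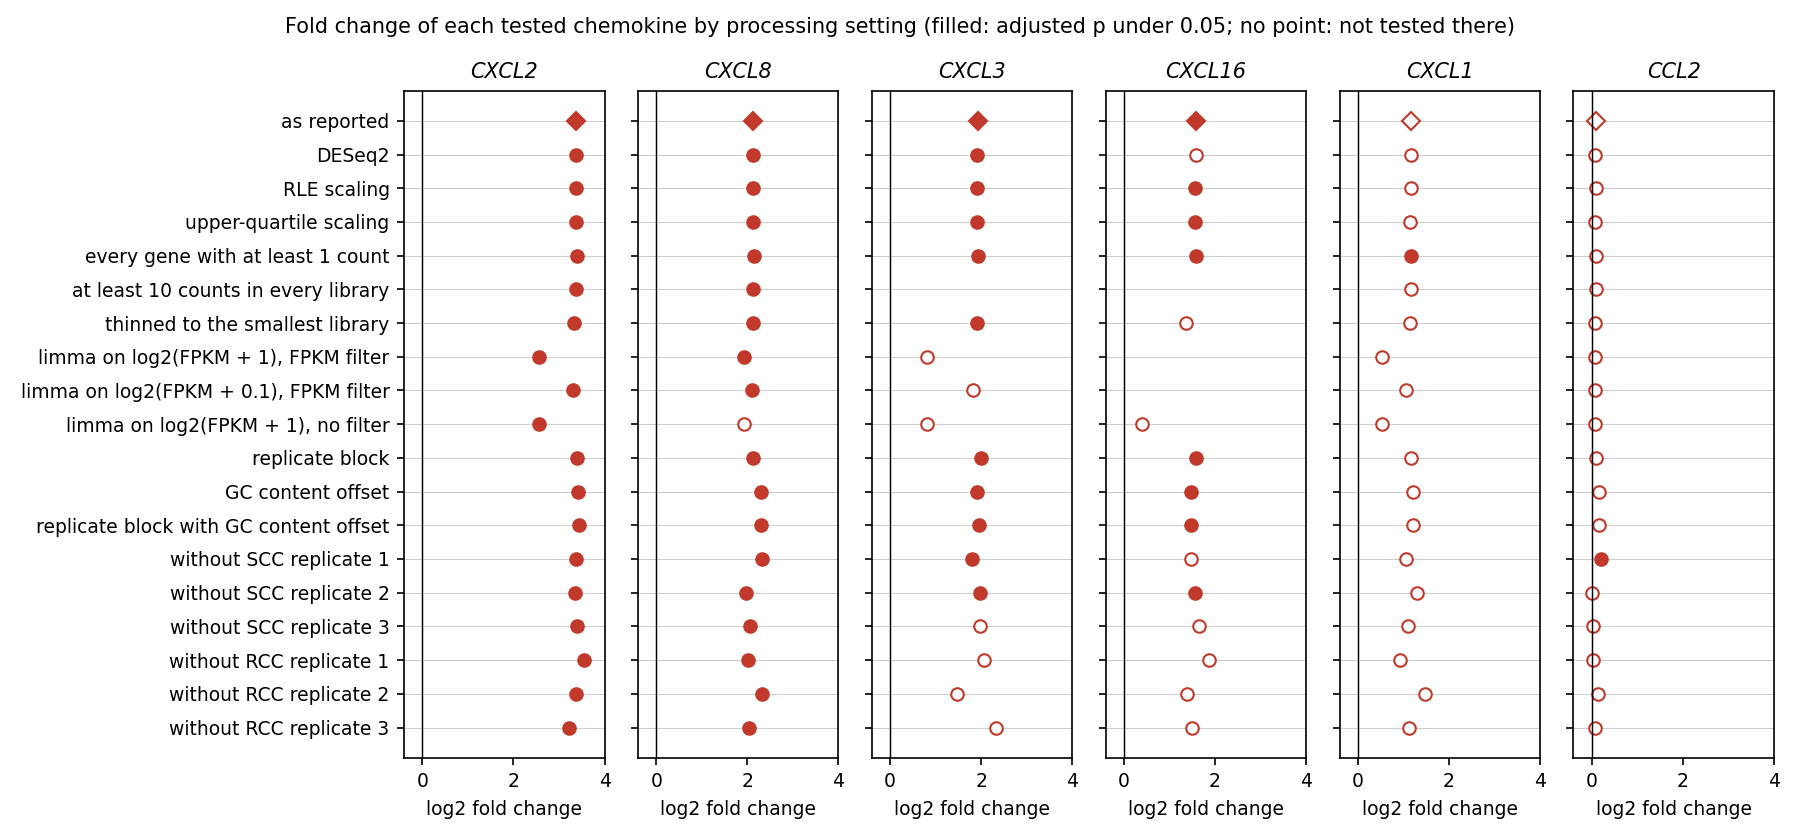
Log2 fold change of SCC over RCC (horizontal axis) of each tested chemokine gene under each processing setting (rows; the diamond is the value in the text); filled points had an adjusted p under 0.05, open points did not, and a missing point means that the gene was not tested in that setting. CXCL2 is filled in every setting and CXCL8 in all but limma on log2(FPKM + 1) without a filter, whereas CXCL3 and CXCL16 are open in several and CCL2 is filled only without SCC replicate 1.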

How the data were processed

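For 6 libraries the authors deposited whole-number counts and, beside them, FPKM for every gene. The submitters' processing notes name HISAT2 2.0.5 and featureCounts 1.5.0-p3. The genome build, read filters and use of strand are not given in the sources used here. Gene IDs and positions in all 58735 rows matched GENCODE release 29 (GRCh38). The deposited FPKM equalled count over gene length and 1 constant per library, 0.984 to 1.02 times its summed count.

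Counts were filtered (filterByExpr, minimum count 10), scaled by TMM and tested with edgeR 4.0.16 in R 4.3.3 (glmQLFit on group, two-sided quasi-likelihood F test, Benjamini-Hochberg). Standard errors are the fold change over the square root of F. The fit was also run on simulated counts whose spread depended only on the mean level, without spread particular to each gene. The outcome is not reported here. Alternatives used DESeq2 1.42.0, limma 3.58.1 on log2(FPKM + 1) and log2(FPKM + 0.1), other scalings and filters, thinning, a GC offset from the longest GENCODE transcript, a replicate block, and each library left out.

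Every family member is described. From each other list the up to 6 called genes with the largest fold change and the uncalled gene with the highest CPM are named, with 6 receptors of family members; some items are not reported here. PF4, PF4V1, PPBP, CXCL6, MTHFD2L, EREG, AREG, TIA1 and CXCR4 were named after their values were seen. Members and lists were chosen with earlier results of these data known.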

Additional observations from a re-analysis of the deposited data

How the results depend on the processing

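CXCL2 was called in all 18 alternatives and no family member was called lower in any. The 4 family calls became 2 with at least 10 counts in every library (4 of the genes tested) and with limma on log2(FPKM + 1) or log2(FPKM + 0.1) under the FPKM filter, and 1 with limma on log2(FPKM + 1) without a filter. Leaving out 1 library gave 2 to 4, with 2 without SCC replicate 3 or RCC replicate 1, 2 or 3. Limma gave CXCL3 log2 fold changes of 0.81 (log2(FPKM + 1), adjusted p 0.0799 with and 0.272 without the filter) and 1.81 (log2(FPKM + 0.1), 0.153). Without the filter it gave CXCL8 1.93 (0.0728) and CXCL16 0.39 (0.357). CXCL16 was also not called by DESeq2 (1.58, adjusted p 0.0628) or after thinning (1.37, 0.106), and CXCL1 was called in the fit to all genes with a count (1.18, 0.0358). Over the fits without 1 library, log2 fold changes ran from 0.93 to 1.47 for CXCL1, 3.22 to 3.56 for CXCL2, 1.48 to 2.33 for CXCL3, 1.98 to 2.33 for CXCL8, 1.39 to 1.87 for CXCL16 and 0.011 to 0.20 for CCL2. The log2(FPKM + 1) scale shrinks low genes by construction, and fewer libraries enter the last fits; other causes were not tested.

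Over all genes, 268 were called higher and 60 lower. The counts were 995 and 315 with every gene tested, 130 and 36 with limma on log2(FPKM + 1), 117 and 34 on log2(FPKM + 0.1), 48 and 1 without its filter, 523 and 245 with the GC offset, and 621 and 432 with the replicate block and GC offset. DESeq2 called 120 lower. Fits without 1 library gave 99 (without RCC replicate 1 or 2) to 642 higher and 8 (without RCC replicate 1) to 343 lower, the largest without SCC replicate 1. The cause was not tested. Same-numbered libraries did not deviate together (correlations -0.01, 0.02 and -0.08), so the numbers were not taken as pairs. With the replicate block 350 genes were higher and 106 lower, and the 4 family calls were made. The block gave log2 fold changes of 3.40 for CXCL2, 2.12 for CXCL8, 1.99 for CXCL3, 1.59 for CXCL16, 1.18 for CXCL1 and 0.08 for CCL2. Among uncalled genes the sign turned for ADAM10 (0.003 with the GC offset, 0.002 with the block too), IRAK1 (-0.094 in both, -0.025 without SCC replicate 1, up to 0.23 without another library), CCL28 (-0.099 without SCC replicate 2, -0.027 without RCC replicate 3, up to 0.423) and CXCR6 (0.059 without SCC replicate 3 or RCC replicate 2, down to -0.202). Depth limits CXCL5, CCL5 and CCL20, which no fit called, and makes CXCL1, CXCL3 and CXCL16 depend on 5 to 98 counts per library.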
